A study of Mus with 4 samples.

Results

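The mouse genes for the subunits of oxidative phosphorylation, with their isoforms and the assembly factors that share their symbols, were described across 4 tumor arrays. Members were chosen by symbol alone: Ndufa, Ndufb, Ndufc, Ndufs and Ndufv genes, Sdha to Sdhd, Uqcr genes, Cox4 to Cox8 genes, Atp5 genes, Cyc1 and Cycs. This rule found 95 of the 19505 named genes on the array, each with 1 probe set. They comprise 36 genes of complex I, 4 of complex II, 9 of complex III, Cycs, 11 of complex IV, 17 of complex V, 9 assembly and other factors, and 8 tissue-limited isoforms. A mean level over the 4 arrays of 5.73 or more on the log2 scale, the median over all rows, was required for the main counts, and 84 of the 95 members passed it. The 11 that did not are Ndufa7, Ndufv3, Ndufaf3 and the 8 isoforms, which are given separately.

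Oxidative phosphorylation makes ATP at the inner mitochondrial membrane. Complex I takes electrons from NADH and complex II takes them from succinate, complex III passes them to cytochrome c, and complex IV hands them to oxygen. The protons pumped along the way return through complex V, the ATP synthase, whose rotor turns as it makes ATP. Renal tubule cells rely heavily on this pathway, and many renal cancers shift toward glycolysis.

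The tumors grew from Renca cells, a renal adenocarcinoma line of BALB/c mice, with stable expression of a short hairpin RNA that targets Nrf3 (shNrf3) or of a control one (shCtrl). Nrf3, encoded by Nfe2l3, is a transcription factor of the cap'n'collar family. Male BALB/cCrSlc mice, bought at 4 to 6 weeks of age, ate a high-fat diet (HFD) or normal chow (NC) for 17 weeks, received the cells under the skin of the flank, and had the tumors removed after 2 weeks. The groups were shNrf3 tumors of HFD mice (shNrf3-HFD), shCtrl tumors of HFD mice (shCtrl-HFD), shNrf3 tumors of NC mice (shNrf3-NC) and shCtrl tumors of NC mice (shCtrl-NC), with 1 array each. Whether the RNA of an array came from 1 tumor or several is not stated in the labels. No spread within a group can therefore be measured, no comparison of 2 arrays has a test, and differences below are between these arrays. The 4 comparisons were shNrf3 minus shCtrl in HFD and in NC, and HFD minus NC with shNrf3 and with shCtrl. A log2 difference of 1 is 2-fold, and members 1.5-fold or more apart were counted. In whole tumors, fewer cells of a type and less RNA per cell cannot be told apart.

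Facts of the arrays bear on all that follows. Nfe2l3, the target of the hairpin, had levels of 6.05 on the shNrf3-HFD array and 5.77 on the shCtrl-HFD array. In NC its levels were 5.56 with shNrf3 and 6.22 with shCtrl. It was thus lower by 0.66 with shNrf3 in NC but higher by 0.28 in HFD, all near the negative control median of 5.35 to 5.39, so the arrays are called by their labels throughout. The SD over all rows was 3.11, 3.21 and 3.17 on the shNrf3-HFD, shCtrl-HFD and shNrf3-NC arrays and 3.02 on the shCtrl-NC array. The tumor label was checked against 10 epithelial and renal tubule markers: Krt8, Krt18, Cdh1, Epcam and Cldn4 were the 5 above the 95th percentile of the negative controls (8.97 to 9.35) on every array, whereas the tubule genes Pax8, Lrp2 and Slc34a1 lay below the negative control median.

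Most members had their lowest level on the shCtrl-NC array. The median level of the 84 members was 11.22 on the shNrf3-HFD array, 11.44 on the shCtrl-HFD array, 11.53 on the shNrf3-NC array and 10.38 on the shCtrl-NC array. Of the 84, 67 (79.8%) were lowest on shCtrl-NC, against 41.6% of all 10021 genes past the filter. On that array 42 members (50.0%) lay 1.5-fold or more below the lowest of the other 3 arrays, against 13.9% of all genes. Among the other 3 arrays the median range of a member was 0.55, close to the 0.58 of all genes. Of the 84, 56 lay above the negative control 95th percentile on all 4 arrays. The highest level was on shNrf3-NC for 43 members and on shCtrl-HFD for 32.

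**Figure D1:**
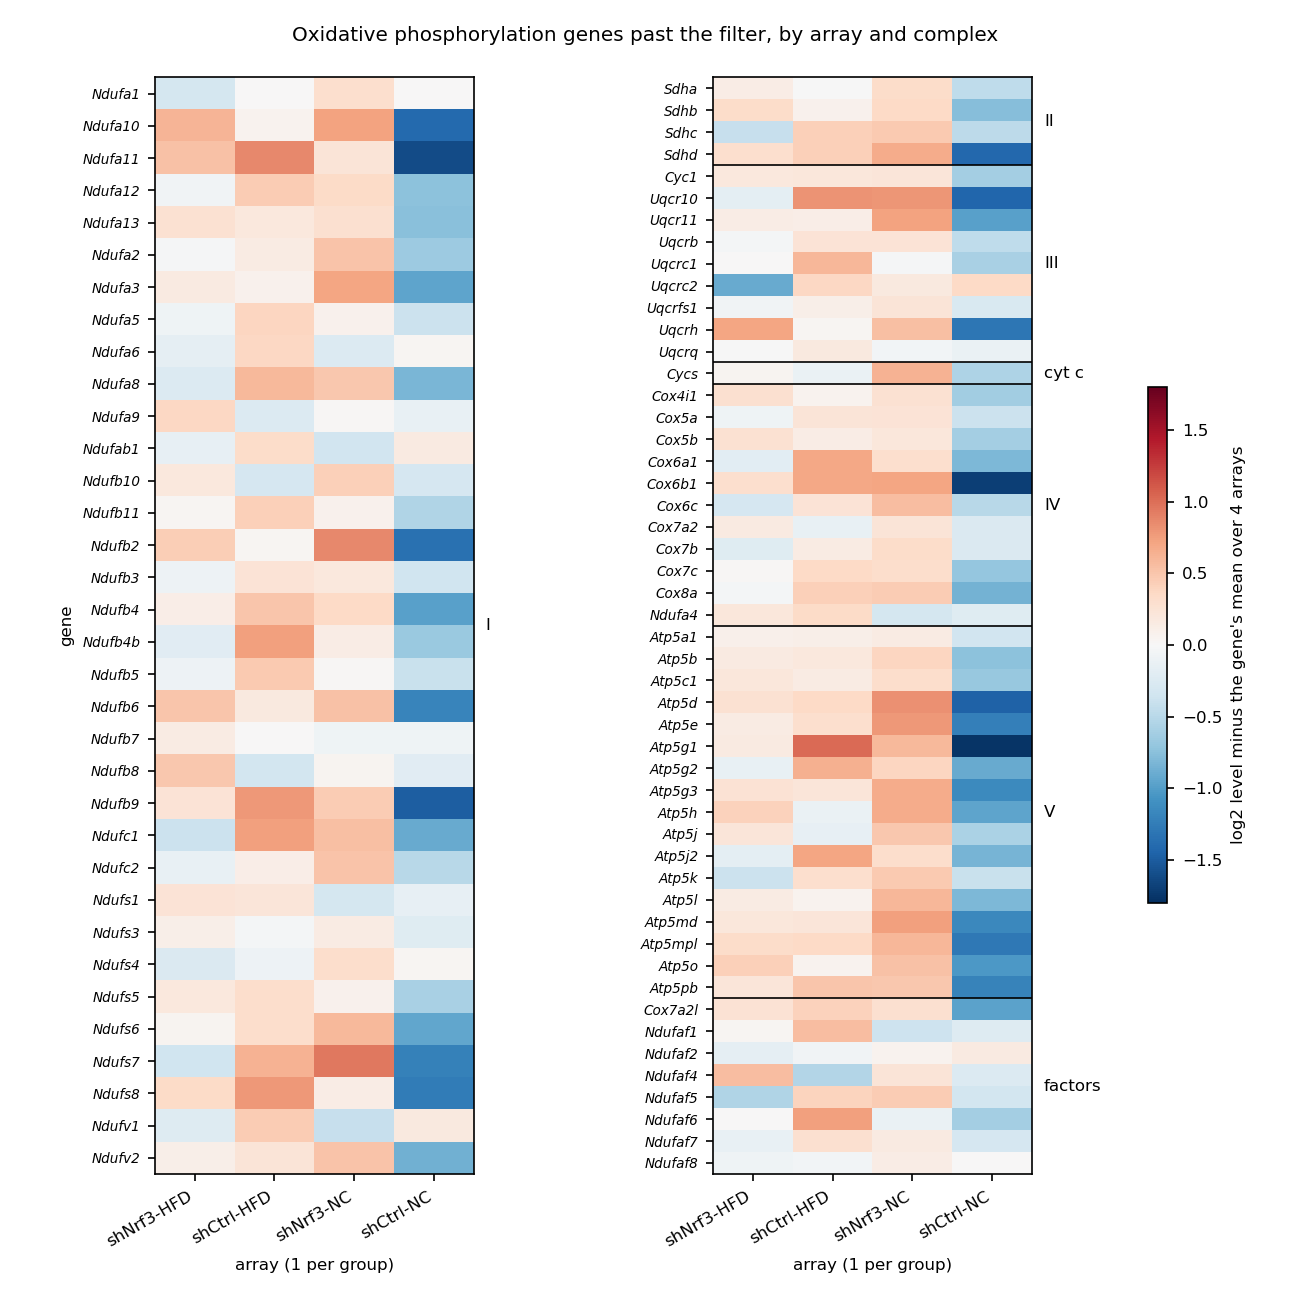
Log2 level of each of the 84 members past the filter, minus its own mean over the 4 arrays (colour, red higher and blue lower), with genes in rows by complex and the 4 arrays in columns. The shCtrl-NC column is the lowest of the row for 67 of 84 genes, and for all 17 genes of complex V.

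The 4 comparisons share arrays in pairs, so they are given side by side and not set against each other. With shNrf3 against shCtrl in NC, the members' median difference was 1.01, and 57 of 84 members were 1.5-fold or more higher (background 26.8% of all genes) and 1 was lower (background 13.5%). With HFD against NC in shCtrl tumors, the median was 0.87, and 60 members were higher (background 31.2%) and 0 lower (background 10.7%). Both comparisons subtract the shCtrl-NC array.

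The comparisons that leave that array out had small medians. With shNrf3 against shCtrl in HFD, where Nfe2l3 was not lower, the median was -0.17, and 4 members were higher (background 9.12%) and 16 lower (background 20.8%). With HFD against NC in shNrf3 tumors it was -0.27, and 0 members were higher (background 8.84%) and 13 lower (background 14.4%). The shares of lower members, 19.0% and 15.5%, were near their backgrounds. For HFD minus NC with shNrf3, however, 65 of 84 members were below 0, against 5296 of all 10021 genes. The construct by diet difference, shNrf3 minus shCtrl in HFD minus that in NC, was 1.5-fold or more below 0 for 66 members (background 37.2%) and above 0 for 1, Ndufaf4 (background 13.8%). Over all genes the medians were -0.14 for shNrf3 minus shCtrl in HFD, 0.14 for shNrf3 minus shCtrl in NC, -0.03 for HFD minus NC with shNrf3 and 0.26 for HFD minus NC with shCtrl.

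**Figure D2:**
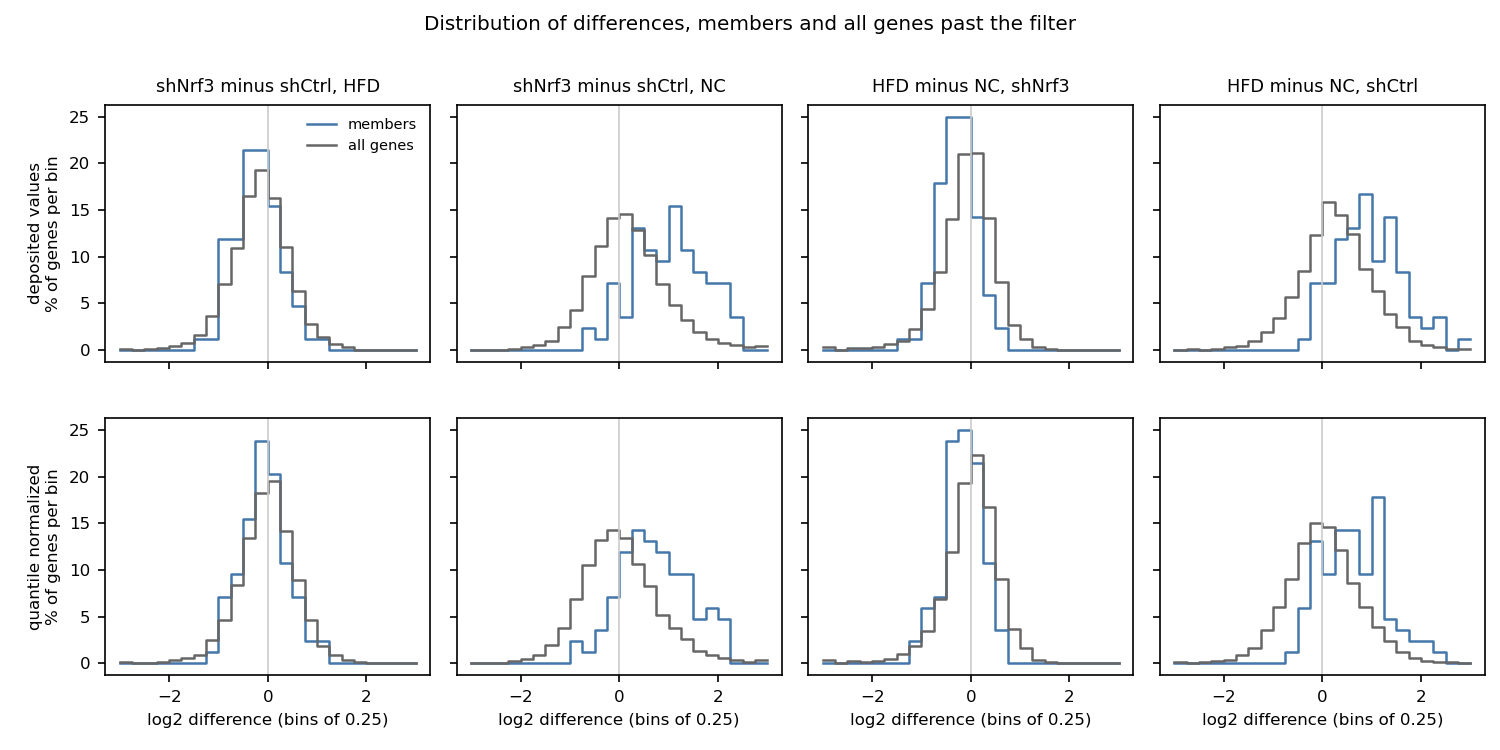
Share of genes (vertical axis, % per bin of 0.25) by log2 difference (horizontal axis) in the 4 comparisons, for the 84 members (blue) and all genes past the filter (grey), on the deposited values (top) and after quantile normalization (bottom). Members sit to the right of all genes in both comparisons that subtract the shCtrl-NC array, with medians of 1.01 and 0.87 as deposited and 0.72 and 0.56 after quantile normalization.

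The shCtrl-NC array had the lowest SD, and members have high levels, so the values were scaled again. Cyclic loess, which removes trends between arrays along the level, brought the median of all genes to 0.00 for shNrf3 minus shCtrl in NC and to 0.02 for HFD minus NC with shCtrl. The members' medians were then 0.75 and 0.57. Quantile normalization, which gives all arrays 1 distribution, left 0.72 and 0.56. After loess 60 of 84 members (71.4%) were still lowest on shCtrl-NC, against 31.6% of all genes, and 26 (31.0%) lay 1.5-fold below the other 3 arrays, against 9.22%. In HFD the median moved to -0.02 after loess and -0.03 after quantile normalization, with all genes at -0.01 and 0.01. For HFD minus NC with shNrf3 the members' median was -0.24 after loess and -0.17 after quantile normalization, with all genes at -0.01 and 0.04.

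**Figure D3:**
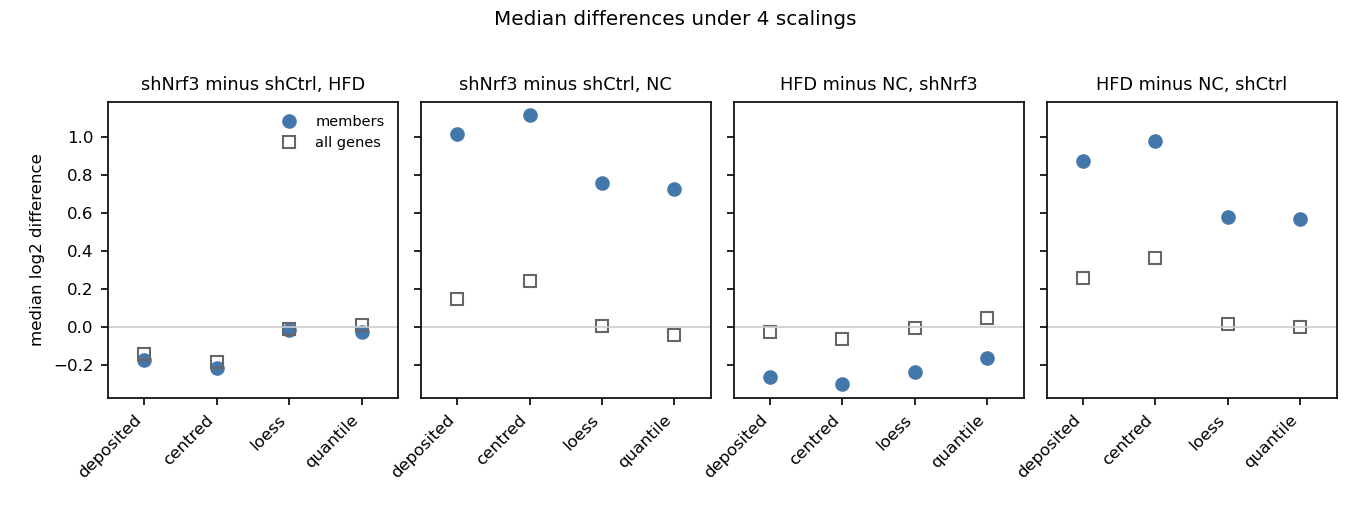
Median log2 difference (vertical axis) of the 84 members (filled circles) and of all genes past the filter (open squares) in the 4 comparisons, on the deposited values, centred on array medians, after cyclic loess and after quantile normalization (horizontal axis). Under each of the 4 scalings circles stand above squares for shNrf3 minus shCtrl in NC and for HFD minus NC with shCtrl, least after loess in both (0.749 and 0.558). For HFD minus NC with shNrf3 circles stand below squares under each, with gaps from -0.24 to -0.21.

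Complex I, the NADH dehydrogenase, had a median difference of 0.91 for shNrf3 minus shCtrl in NC, and 21 of its 34 genes past the filter were 1.5-fold or more higher and 1 lower. For HFD minus NC with shCtrl the median was 0.92, with 23 genes higher and 0 lower. The medians were -0.30 for shNrf3 minus shCtrl in HFD and -0.19 for HFD minus NC with shNrf3. After loess the median for HFD minus NC with shCtrl was 0.57, with 16 genes higher (background 20.2%). That for shNrf3 minus shCtrl in NC was 0.70, with 18 higher (background 21.7%) and 2 lower (background 18.1%). That for shNrf3 minus shCtrl in HFD was -0.13. Quantile normalization gave -0.07 for HFD minus NC with shNrf3. Its genes did not share 1 order of arrays: 24 of 34 were lowest on shCtrl-NC, 5 on shNrf3-NC, 3 on shCtrl-HFD and 2 on shNrf3-HFD.

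Ndufb2, an accessory subunit of the membrane arm, had the largest difference of complex I in NC. Its levels were 9.61 on shNrf3-HFD, 9.21 on shCtrl-HFD, 10.04 on shNrf3-NC and 7.83 on shCtrl-NC, and the shCtrl-NC array stood below the other 3. This is a difference of 2.22 for shNrf3 minus shCtrl in NC. Ndufa11, another membrane arm accessory subunit, had levels of 9.99 on shNrf3-HFD, 10.32 on shCtrl-HFD, 9.69 on shNrf3-NC and 7.85 on shCtrl-NC, and again shCtrl-NC was the low array. Its difference of 2.47 for HFD minus NC with shCtrl was the largest of complex I.

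Ndufs7, which holds the iron-sulfur cluster next to the ubiquinone site, spread most across the arrays for a core subunit. It had levels of 8.55 on shNrf3-HFD, 9.53 on shCtrl-HFD, 9.87 on shNrf3-NC and 7.69 on shCtrl-NC. The shNrf3-HFD array was thus low as well: Ndufs7 was lower by 1.32 for HFD minus NC with shNrf3, the lowest difference of complex I in that comparison. Ndufs8, a core subunit with 2 such clusters, had levels of 10.58 on shNrf3-HFD, 11.02 on shCtrl-HFD, 10.37 on shNrf3-NC and 8.97 on shCtrl-NC. Here shCtrl-NC alone stood apart.

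Ndufv1, the core subunit that binds FMN and NADH, went the other way. Its levels were 12.22 on shNrf3-HFD, 12.92 on shCtrl-HFD, 12.05 on shNrf3-NC and 12.64 on shCtrl-NC. Both shCtrl arrays were above both shNrf3 arrays, by 0.70 in HFD and by 0.59 in NC, and it was the 1 member 1.5-fold lower with shNrf3 in NC. Its partner in the NADH-binding module, Ndufv2, followed the majority, with levels of 12.32 on shNrf3-HFD, 12.44 on shCtrl-HFD, 12.72 on shNrf3-NC and 11.35 on shCtrl-NC.

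Ndufs1, the largest iron-sulfur subunit of that module, hardly differed between constructs. It had levels of 9.94 on shNrf3-HFD, 9.91 on shCtrl-HFD, 9.38 on shNrf3-NC and 9.54 on shCtrl-NC, so both HFD arrays were above both NC arrays. Its 0.56 was the highest difference of complex I for HFD minus NC with shNrf3. Ndufs4, an accessory subunit whose loss causes Leigh syndrome in humans, had levels of 10.23 on shNrf3-HFD, 10.40 on shCtrl-HFD, 10.80 on shNrf3-NC and 10.53 on shCtrl-NC. Both HFD arrays were the low ones, and its -0.13 was the lowest difference of complex I for HFD minus NC with shCtrl.

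In HFD the extremes of complex I for shNrf3 minus shCtrl were Ndufb8 and Ndufc1, both accessory subunits of the membrane arm. Ndufb8 had levels of 9.29 on shNrf3-HFD, 8.48 on shCtrl-HFD, 8.85 on shNrf3-NC and 8.59 on shCtrl-NC, a difference of 0.81 in HFD. Ndufc1 had levels of 10.40 on shNrf3-HFD, 11.53 on shCtrl-HFD, 11.32 on shNrf3-NC and 9.88 on shCtrl-NC, a difference of -1.13 in HFD. Ndufb8 had only shNrf3-HFD above the negative control 95th percentile, whereas Ndufc1 was above it on all 4 arrays. The 6 core subunits past the filter, Ndufs1, Ndufs3, Ndufs7, Ndufs8, Ndufv1 and Ndufv2, had a median of 0.87 for shNrf3 minus shCtrl in NC with a range of -0.59 to 2.17, and the 28 accessory subunits one of 0.91. Ndufb4 and its near-identical copy Ndufb4b, whose probe sets may read each other, had 1.33 and 0.81 in that comparison. The accessory genes Ndufa7 and Ndufv3, which did not pass the filter, lay between 4.42 and 5.60 on all arrays, around the negative control median.

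Complex II, the succinate dehydrogenase that also serves the citric acid cycle, had all 4 genes lowest on shCtrl-NC and highest on shNrf3-NC. Its median was 1.03 for shNrf3 minus shCtrl in NC, with 4 of 4 genes 1.5-fold higher, and 0.87 for HFD minus NC with shCtrl, with 3 of 4 higher. After loess the medians were 0.80, with 4 of 4 higher (background 21.7%), and 0.52, with 1 of 4 higher (background 20.2%). In HFD the median for shNrf3 minus shCtrl was 0.00 as deposited and 0.16 after loess, and with shNrf3 that for HFD minus NC was -0.28.

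Sdha, the flavoprotein that oxidises succinate, had levels of 8.93 on shNrf3-HFD, 8.80 on shCtrl-HFD, 9.13 on shNrf3-NC and 8.34 on shCtrl-NC, most of them below the negative control 95th percentile. Sdhb, the iron-sulfur subunit, had levels of 12.82 on shNrf3-HFD, 12.56 on shCtrl-HFD, 12.83 on shNrf3-NC and 11.72 on shCtrl-NC. For both, shCtrl-NC was the low array, by 0.78 and 1.12 below shNrf3-NC.

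Sdhc, a membrane anchor, had levels of 9.28 on shNrf3-HFD, 10.12 on shCtrl-HFD, 10.17 on shNrf3-NC and 9.22 on shCtrl-NC. It was the 1 gene of complex II with a low level on shNrf3-HFD too, 0.85 under shCtrl-HFD. Sdhd, the other anchor, had levels of 11.49 on shNrf3-HFD, 11.62 on shCtrl-HFD, 11.85 on shNrf3-NC and 9.77 on shCtrl-NC. Its 2.09 for shNrf3 minus shCtrl in NC was the largest of the complex.

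Complex III, the cytochrome bc1 complex, had a median of 0.71 for shNrf3 minus shCtrl in NC, with 5 of 9 genes 1.5-fold higher and 0 lower, and of 0.82 for HFD minus NC with shCtrl, with 6 higher and 0 lower. For shNrf3 minus shCtrl in HFD and HFD minus NC with shNrf3 the medians were -0.18 and -0.29. The median in NC depended on the scaling: it was 0.36 after loess and 0.35 after quantile normalization. Under each 4 genes were higher (background 21.7% and 20.5%) for shNrf3 minus shCtrl in NC. The 5 small subunits (Uqcrb, Uqcrh, Uqcrq, Uqcr10 and Uqcr11) had a median of 1.69 in that comparison, and the 4 larger ones (Uqcrc1, Uqcrc2, Uqcrfs1 and Cyc1) one of 0.54. That difference was not tested.

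Uqcr10, a small membrane subunit, had levels of 8.54 on shNrf3-HFD, 9.52 on shCtrl-HFD, 9.51 on shNrf3-NC and 7.29 on shCtrl-NC. Both comparisons against shCtrl-NC gave the highest differences of complex III, 2.23 for shNrf3 minus shCtrl in NC and 2.24 for HFD minus NC with shCtrl. Uqcrh, the hinge protein that helps cytochrome c dock, had levels of 14.15 on shNrf3-HFD, 13.48 on shCtrl-HFD, 13.99 on shNrf3-NC and 12.14 on shCtrl-NC. It was higher with shNrf3 on both diets, by 0.68 in HFD and by 1.84 in NC.

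Uqcrc2, a core protein on the matrix side, was the exception of complex III. Its levels were 7.49 on shNrf3-HFD, 8.75 on shCtrl-HFD, 8.56 on shNrf3-NC and 8.74 on shCtrl-NC. Its low array was shNrf3-HFD, 1.27 under shCtrl-HFD and 1.08 under shNrf3-NC, and every level lay below the negative control 95th percentile. Cyc1, the cytochrome c1 that passes electrons to cytochrome c, had levels of 6.91 on shNrf3-HFD, 6.93 on shCtrl-HFD, 6.95 on shNrf3-NC and 6.11 on shCtrl-NC. The first 3 differed by 0.03 or less, and shCtrl-NC was 0.84 under shNrf3-NC.

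Cycs, the mobile carrier cytochrome c, which also triggers apoptosis when released, had levels of 14.60 on shNrf3-HFD, 14.44 on shCtrl-HFD, 15.18 on shNrf3-NC and 14.01 on shCtrl-NC. The shNrf3-NC array was the high one, by 1.18 over shCtrl-NC and by 0.58 over shNrf3-HFD. Its 0.43 for HFD minus NC with shCtrl came to 0.01 after loess and 0.05 after quantile normalization.

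Complex IV, cytochrome c oxidase, had 10 of 11 genes lowest on shCtrl-NC. For shNrf3 minus shCtrl in NC the median was 0.90, with 8 genes 1.5-fold higher and 0 lower, and for HFD minus NC with shCtrl 0.74, also with 8 higher and 0 lower. Scaling lowered both. For shNrf3 minus shCtrl in NC the median was 0.60 after loess, with 6 genes higher (background 21.7%). It was 0.39 after quantile normalization, with 3 higher (background 20.5%). For HFD minus NC with shCtrl it was 0.33 after loess, with 4 higher, and 0.35 after quantile normalization, with 3 higher. The medians of the comparisons without shCtrl-NC were -0.35 for shNrf3 minus shCtrl in HFD and -0.32 for HFD minus NC with shNrf3, and in each 0 genes were higher and 1 was lower.

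Cox6b1, an intermembrane subunit near the cytochrome c site, differed most. Its levels were 11.90 on shNrf3-HFD, 12.29 on shCtrl-HFD, 12.31 on shNrf3-NC and 9.91 on shCtrl-NC. That gave 2.41 for shNrf3 minus shCtrl in NC and 2.39 for HFD minus NC with shCtrl, and the other 3 arrays lay within 0.41 of each other. Cox6a1, a subunit at the dimer interface, had levels of 13.26 on shNrf3-HFD, 14.13 on shCtrl-HFD, 13.74 on shNrf3-NC and 12.63 on shCtrl-NC. Its -0.88 was the lowest difference of complex IV for shNrf3 minus shCtrl in HFD.

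Cox6c, a small membrane subunit, had levels of 14.68 on shNrf3-HFD, 15.23 on shCtrl-HFD, 15.54 on shNrf3-NC and 14.48 on shCtrl-NC. Both shNrf3-HFD and shCtrl-NC were low, and its -0.86 was the lowest for HFD minus NC with shNrf3. Cox7a2, whose muscle counterpart is Cox7a1, had levels of 12.15 on shNrf3-HFD, 11.86 on shCtrl-HFD, 12.23 on shNrf3-NC and 11.74 on shCtrl-NC. All 4 lay within 0.49.

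Ndufa4, named for complex I but a subunit of complex IV, was the exception here. Its levels were 13.40 on shNrf3-HFD, 13.54 on shCtrl-HFD, 12.88 on shNrf3-NC and 12.98 on shCtrl-NC. The 2 HFD arrays were above the 2 NC arrays, by 0.52 with shNrf3 and by 0.56 with shCtrl, and the constructs differed by 0.14 or less as deposited. Loess left 0.56 for HFD minus NC with shNrf3 and 0.15 with shCtrl.

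Complex V, the ATP synthase, had the largest medians against shCtrl-NC. For shNrf3 minus shCtrl in NC the median was 1.56, with 16 of 17 genes 1.5-fold higher, and all 17 differences were above 0 as deposited and after loess, but 16 after quantile normalization, where Atp5a1 was at -0.07. For HFD minus NC with shCtrl it was 1.35, with 15 of 17 higher. After loess these medians were 1.25, with 16 higher, and 0.97, with 11 higher, and after quantile normalization 1.13, with 14 higher, and 1.01, with 10 higher. For shNrf3 minus shCtrl in HFD the median was -0.03 as deposited, 0.10 after loess and 0.10 after quantile normalization. For HFD minus NC with shNrf3 it was -0.42. There 0 of 17 genes were above 0 as deposited and after loess, and 3 after quantile normalization. Whether complex V differs from the other complexes was not tested, since subunits of a complex are not replicates.

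**Figure D4:**
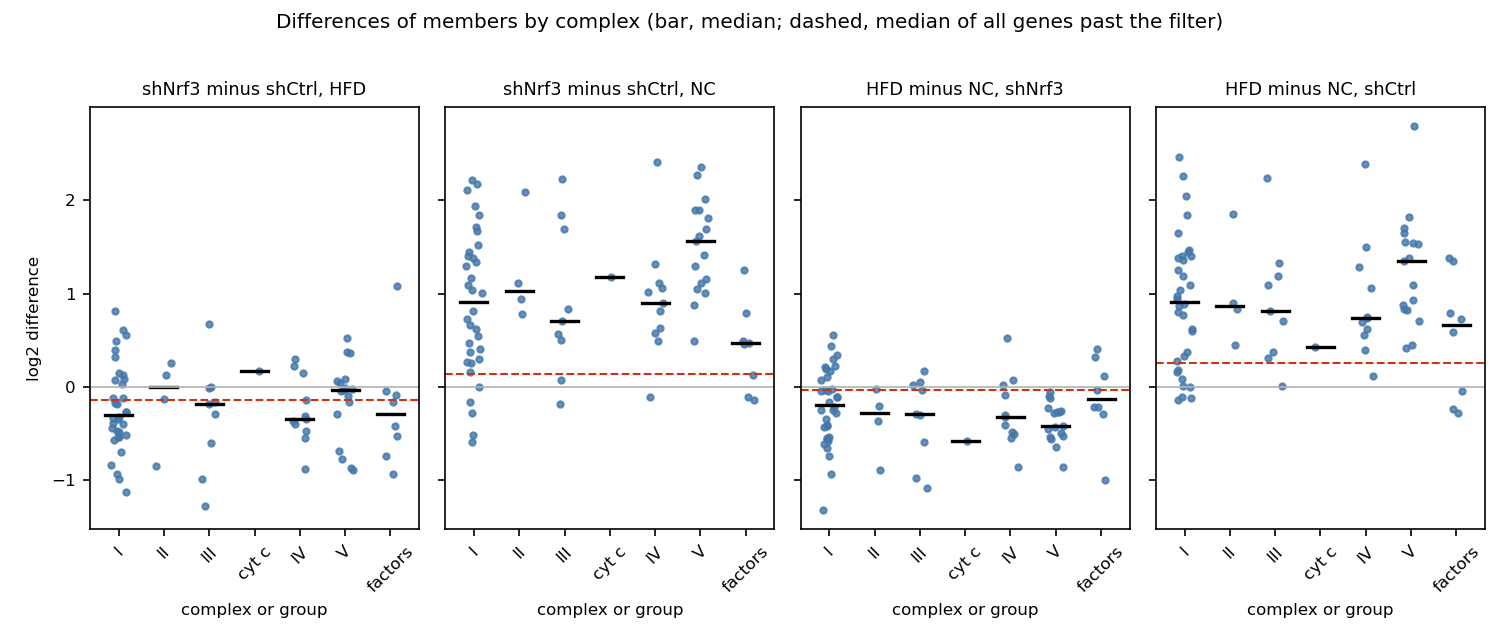
Log2 difference (vertical axis) of each member past the filter, by complex (horizontal axis), in the 4 comparisons. Points are genes, black bars are medians of a complex, and the dashed line is the median of all genes past the filter. The bar of complex V stands at 1.56 for shNrf3 minus shCtrl in NC and those of complexes I to IV at 0.71 to 1.03.

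The c subunit, whose ring is the rotor of the synthase, is encoded by Atp5g1, Atp5g2 and Atp5g3, which give the same mature protein. Atp5g1 had levels of 11.51 on shNrf3-HFD, 12.37 on shCtrl-HFD, 11.93 on shNrf3-NC and 9.58 on shCtrl-NC. Its 2.79 for HFD minus NC with shCtrl was the largest difference of any member past the filter, and its 2.35 for shNrf3 minus shCtrl in NC the largest of complex V. Atp5g2 and Atp5g3 had 1.30 and 1.81 in NC. In HFD the c genes parted: Atp5g1 was lower with shNrf3 by 0.87 and Atp5g2 by 0.77, whereas Atp5g3 differed by 0.04.

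In the catalytic head, Atp5a1 (the alpha subunit) had the smallest difference of complex V in NC. It had levels of 15.80 on shNrf3-HFD, 15.81 on shCtrl-HFD, 15.86 on shNrf3-NC and 15.36 on shCtrl-NC, a difference of 0.50. Atp5b (beta) had 1.11 and Atp5c1 (gamma) 1.0 in that comparison, and the small subunits of the central stalk, Atp5d (delta) and Atp5e (epsilon), had 2.27 and 2.02.

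Of the stalk and membrane subunits, Atp5h (subunit d of the peripheral stalk) had levels of 16.55 on shNrf3-HFD, 16.02 on shCtrl-HFD, 16.80 on shNrf3-NC and 15.18 on shCtrl-NC. Both shNrf3 arrays were above both shCtrl arrays, by 0.53 in HFD and by 1.62 in NC. Atp5j (coupling factor 6), with levels of 11.19 on shNrf3-HFD, 10.83 on shCtrl-HFD, 11.46 on shNrf3-NC and 10.41 on shCtrl-NC, showed the same order. Its 0.42 was the lowest of complex V for HFD minus NC with shCtrl.

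Atp5j2 (subunit f) had levels of 14.71 on shNrf3-HFD, 15.59 on shCtrl-HFD, 15.20 on shNrf3-NC and 14.04 on shCtrl-NC, and was lower with shNrf3 in HFD by 0.89, the lowest of the complex. Atp5k (subunit e, which helps synthase dimers form) had levels of 6.55 on shNrf3-HFD, 7.23 on shCtrl-HFD, 7.40 on shNrf3-NC and 6.52 on shCtrl-NC. It lay below the negative control 95th percentile on all 4 arrays, and its -0.86 was the lowest of the complex for HFD minus NC with shNrf3. The remaining stalk and membrane genes, Atp5l, Atp5md, Atp5mpl, Atp5o and Atp5pb, were 1.41 to 1.89 higher with shNrf3 in NC.

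The 8 assembly and other factors past the filter had medians of 0.47 for shNrf3 minus shCtrl in NC and 0.66 for HFD minus NC with shCtrl, and -0.29 and -0.13 for shNrf3 minus shCtrl in HFD and HFD minus NC with shNrf3. Of them 3 of 8 were lowest on shCtrl-NC (background 41.6%) and 3 on shNrf3-HFD (background 22.6%). Cox7a2l, a factor linked to supercomplexes of complexes III and IV, had levels of 12.08 on shNrf3-HFD, 12.25 on shCtrl-HFD, 12.12 on shNrf3-NC and 10.86 on shCtrl-NC. It followed the subunits, with 1.26 for shNrf3 minus shCtrl in NC and 1.39 for HFD minus NC with shCtrl.

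Ndufaf4, a complex I assembly factor, had levels of 10.09 on shNrf3-HFD, 9.01 on shCtrl-HFD, 9.76 on shNrf3-NC and 9.29 on shCtrl-NC. Both shNrf3 arrays were the higher ones, and its 1.08 for shNrf3 minus shCtrl in HFD was the highest of any member past the filter. Ndufaf5, which modifies a complex I core subunit, had levels of 6.75 on shNrf3-HFD, 7.69 on shCtrl-HFD, 7.75 on shNrf3-NC and 6.96 on shCtrl-NC, and was lower by 0.94 with shNrf3 in HFD and by 1.0 in HFD with shNrf3. Ndufaf1, needed early for the membrane arm, had levels of 7.34 on shNrf3-HFD, 7.86 on shCtrl-HFD, 6.93 on shNrf3-NC and 7.07 on shCtrl-NC. Its HFD arrays were above its NC arrays with either construct. Ndufaf5 and Ndufaf1 lay below the negative control 95th percentile throughout, as did Ndufaf3, which failed the filter with levels of 5.29 on shNrf3-HFD, 5.33 on shCtrl-HFD, 6.68 on shNrf3-NC and 5.33 on shCtrl-NC.

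The 8 tissue-limited isoforms showed no level above the negative control 95th percentile on any array, and no difference is given for them. The muscle form Cox6a2 had levels of 4.78 on shNrf3-HFD, 4.74 on shCtrl-HFD, 5.58 on shNrf3-NC and 5.61 on shCtrl-NC. Cox7a1, the heart and muscle form, had levels of 5.74 on shNrf3-HFD, 5.33 on shCtrl-HFD, 5.73 on shNrf3-NC and 5.70 on shCtrl-NC. Cox8b, found in mouse muscle and brown fat, had levels of 4.28 on shNrf3-HFD, 4.22 on shCtrl-HFD, 5.66 on shNrf3-NC and 4.12 on shCtrl-NC, and shNrf3-NC was the 1 array above the negative control median.

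The lung form Cox4i2 ranged over 3.69 to 4.96, the testis forms Cox6b2 and Cox7b2 over 4.26 to 4.67 and 4.28 to 5.26, Cox8c over 4.58 to 5.50, and the hypoxia-induced Ndufa4l2 over 4.82 to 6.03. Their widely expressed partners Cox4i1, Cox6a1, Cox6b1, Cox7a2, Cox7b, Cox8a and Ndufa4 lay above the negative control 95th percentile on all 4 arrays, with Cox4i1 at 12.85 to 13.77, Cox7b at 12.96 to 13.54 and Cox8a at 12.07 to 13.39. Levels of different probe sets have no common scale, so each is set only against the negative controls.

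**Figure D5:**
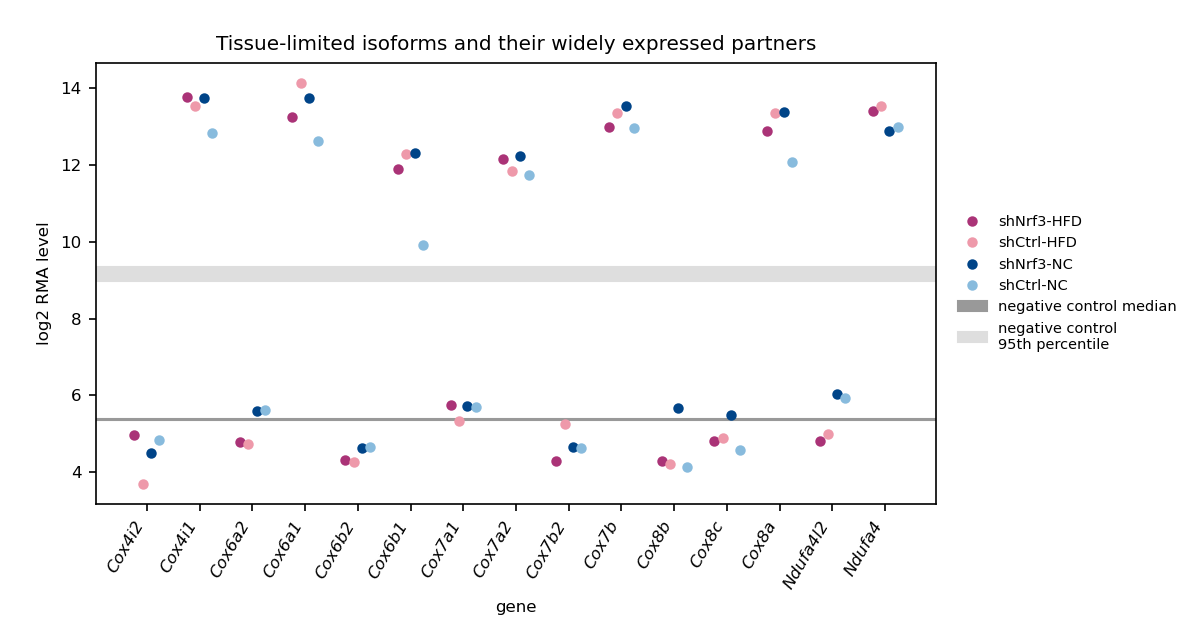
Log2 level (vertical axis) of the 8 tissue-limited isoforms and their 7 widely expressed partners (horizontal axis) on each of the 4 arrays (points). The dark line is the range of the negative control medians (5.35 to 5.39) and the pale band that of their 95th percentiles (8.97 to 9.35): every isoform point lies below the band and every partner point above it.

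Markers of other cell types differed between the arrays too. The 14 adipocyte markers measured had a mean level of 7.56 on shNrf3-HFD, 8.67 on shCtrl-HFD, 9.13 on shNrf3-NC and 7.83 on shCtrl-NC. Their medians, -1.27 for shNrf3 minus shCtrl in HFD, 1.14 for shNrf3 minus shCtrl in NC, -1.28 for HFD minus NC with shNrf3 and 0.99 for HFD minus NC with shCtrl, had the signs of the members' medians, and their part in the result was not tested. Ucp1, which defines brown fat, lay at 2.63 to 3.05, far below the negative control median.

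The 26 skeletal muscle markers had a mean level of 5.27 on shNrf3-HFD, 5.60 on shCtrl-HFD, 7.45 on shNrf3-NC and 5.70 on shCtrl-NC, and 15 of the 26 were 1.5-fold higher with shNrf3 in NC, against 18.8% of all 19505 genes without the filter. Their medians were 1.14 for shNrf3 minus shCtrl in NC and -0.05 for HFD minus NC with shCtrl. The 13 of the 26 past the filter had 2.28 and 0.20 in these comparisons. That filter is on the mean over the 4 arrays, so it lets in genes high only on shNrf3-NC and favours a high value in NC. Myh4 passed it with 10.21 on shNrf3-NC and 4.02, 4.76 and 4.56 on shNrf3-HFD, shCtrl-HFD and shCtrl-NC. The part of the muscle markers in the result was not tested. Acta1, the actin of skeletal muscle fibres, had levels of 4.73 on shNrf3-HFD, 6.48 on shCtrl-HFD, 12.51 on shNrf3-NC and 5.15 on shCtrl-NC. The 10 macrophage markers had a mean level of 11.36 on shNrf3-HFD, 10.88 on shCtrl-HFD, 11.71 on shNrf3-NC and 10.33 on shCtrl-NC, lowest on the same array as the members. Fibroblast and endothelial markers had their highest mean on that array. The 9 fibroblast markers had a mean level of 10.93 on shNrf3-HFD, 12.65 on shCtrl-HFD, 12.47 on shNrf3-NC and 13.27 on shCtrl-NC, with a median of -0.79 and 5 lower and 0 higher for shNrf3 minus shCtrl in NC. The 9 endothelial markers had one of 6.69 on shNrf3-HFD, 7.51 on shCtrl-HFD, 6.81 on shNrf3-NC and 7.78 on shCtrl-NC, with a median of -1.25 and 6 lower and 0 higher. Of all 19505 genes without the filter, 18.9% were 1.5-fold lower with shNrf3 in NC. Of the 9 endothelial markers 6 passed the filter. Above the negative control 95th percentile were 0 on shNrf3-HFD, 2 on shCtrl-HFD, 0 on shNrf3-NC and 3 on shCtrl-NC. The 10 epithelial and renal tubule markers had a mean level of 9.21 on shNrf3-HFD, 9.49 on shCtrl-HFD, 8.87 on shNrf3-NC and 9.48 on shCtrl-NC. For shNrf3 minus shCtrl in NC their median was -0.67, with 6 lower and 0 higher. In that comparison the 9 T cell markers had a median of 0.42, with 4 higher and 0 lower. The 7 smooth muscle and pericyte markers had -0.40, with 2 higher and 2 lower. The part of these cell types in the members' result was not tested.

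Other large gene families, chosen after values were seen, were also low on shCtrl-NC. The 65 genes of cytosolic ribosomal proteins had medians of 1.07 for shNrf3 minus shCtrl in NC and 1.08 for HFD minus NC with shCtrl, and of -0.04 and -0.01 for shNrf3 minus shCtrl in HFD and HFD minus NC with shNrf3. The 76 genes of mitochondrial ribosomal proteins had 0.59 for both comparisons against shCtrl-NC, and the 38 proteasome subunit genes had 0.72 for shNrf3 minus shCtrl in NC and 0.65 for HFD minus NC with shCtrl. The members' pattern was thus shared by families of other functions, and no test set them apart.

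The other genes of the pathway came from lists, counted without the filter. Of all 19505 genes, 18.8% were 1.5-fold higher and 18.9% lower with shNrf3 in NC, and 20.9% higher and 19.2% lower in HFD with shCtrl. Of 17 citric acid cycle and pyruvate genes measured, 8 were 1.5-fold higher and 1 lower with shNrf3 in NC, with a median of 0.42, and 7 were higher and 0 lower in HFD with shCtrl, with a median of 0.36. Idh3b, a subunit of isocitrate dehydrogenase, had levels of 12.36 on shNrf3-HFD, 12.46 on shCtrl-HFD, 12.66 on shNrf3-NC and 10.90 on shCtrl-NC. Mdh2, malate dehydrogenase, had levels of 11.74 on shNrf3-HFD, 12.58 on shCtrl-HFD, 11.97 on shNrf3-NC and 10.85 on shCtrl-NC. For both, shCtrl-NC was the low array. Dld, the dehydrogenase shared by pyruvate and oxoglutarate complexes, was the 1 lower gene, by 0.61. The 8 higher genes include Pcx, pyruvate carboxylase, whose levels of 3.31 to 5.55 were at background.

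The same backgrounds, 18.8% higher and 18.9% lower with shNrf3 in NC, hold for the remaining lists. Assembly genes came from lists that include members. Complex I assembly factors (15 measured, 8 of them members) had a median of 0.13 for shNrf3 minus shCtrl in NC and 0.00 for HFD minus NC with shCtrl, with 3 higher and 1 lower in the first. Complex IV assembly factors (18 measured) had 0.34 and 0.48, with 6 higher and 2 lower in NC, among them the copper chaperones Cox17 (1.36) and Cox19 (1.44). Of 6 complex III assembly factors, 2 were higher and 2 lower with shNrf3 in NC, with a median of -0.06. For HFD minus NC with shCtrl their median was -0.03, with 2 higher and 0 lower. Among them Uqcc2 had levels of 11.07 on shNrf3-HFD, 11.49 on shCtrl-HFD, 11.55 on shNrf3-NC and 8.82 on shCtrl-NC. Bcs1l, which inserts the Rieske protein, had levels of 7.22 on shNrf3-HFD, 8.18 on shCtrl-HFD, 8.10 on shNrf3-NC and 6.63 on shCtrl-NC, whereas Ttc19 was 0.81 lower with shNrf3 in NC. The 4 complex II and 4 complex V assembly genes had medians of 0.23 and 0.37 in NC.

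Of 17 genes for nuclear regulators of respiration and for mitochondrial transcription, 1 was higher (Polrmt, the mitochondrial RNA polymerase) and 1 lower (Ppara, at background) with shNrf3 in NC, with a median of 0.27. Nrf1, a transcription factor of many respiratory genes that is not of the family of Nrf3, had levels of 9.45 on shNrf3-HFD, 10.15 on shCtrl-HFD, 9.84 on shNrf3-NC and 10.06 on shCtrl-NC. Tfam, which packages mitochondrial DNA, had levels of 8.90 on shNrf3-HFD, 8.46 on shCtrl-HFD, 8.37 on shNrf3-NC and 8.36 on shCtrl-NC, and the coactivator Ppargc1a lay at background, between 3.68 and 4.08. Of 11 carriers, 3 were 1.5-fold higher and 3 lower with shNrf3 in NC, and the list's median was 0.25. In that comparison the ADP/ATP exchangers Slc25a4 and Slc25a5 were 1.26 and 1.02 higher, and Slc25a31 was the lowest at -1.03.

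A test across arrays was possible only as an additive fit of construct and diet with limma over all 10021 genes. The interaction of both terms, its 1 residual degree of freedom, served as the error. It called 0 of 84 members for construct and 0 for diet (background 0% of all genes for each). At an unadjusted p under 0.05 it had 4 members for construct (background 4.46%) and 1 for diet (background 2.91%). By limma Uqcrh had 1.26 ± 0.44 (SE) for shNrf3 minus shCtrl, with an adjusted p of 0.961, and Ndufa10, a membrane arm accessory subunit of complex I, had 1.34 ± 0.48, Ndufb2 1.31 ± 0.52 and Atp5h 1.07 ± 0.43, all with adjusted p = 0.961. All 4 were higher with shNrf3 on both diets. For HFD minus NC Ndufa11 had 1.38 ± 0.57, with an adjusted p of 0.999 by limma. A low array enters both terms of this fit as well as its error, so the estimates above carry the shCtrl-NC array too. The 1.38 of Ndufa11 is the mean of 0.30 with shNrf3 and 2.47 with shCtrl. For Ndufb2, 1.31 is the mean of 0.40 in HFD and 2.22 in NC. The fit therefore says little on the members' own pattern, 1 array below 3.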

How the data were processed

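RNA of 4 tumors or tumor pools was labelled from 100 ng total RNA and hybridized to Affymetrix arrays. The authors' log2 values came from Affymetrix Expression Console and its RMA, per the submitters' processing notes. Their versions and the build are not stated in the sources used here. Rows were named from the platform annotation. An array gives no depth; the number of arrays limits precision, and 5222 negative control rows mark background. Groups came from sample titles. Differences are of log2 levels as deposited. Members had to reach a mean of 5.73, and limma 3.58.1 in R 4.3.3 fitted construct and diet (adjusted p threshold 0.05, Benjamini-Hochberg). The code of the fit was run on simulated data with a construct shift and no interaction. That run does not show how the fit behaves where an interaction is present. Members and lists were chosen with earlier results of these data known. Named were the highest and lowest gene of each complex in each comparison, complex II, Cyc1, Cycs and isoform pairs; others (such as Ndufv2, Ndufs8 and the families) were chosen after values were seen. Scalings, filters, fold threshold, grouping and variance prior were varied. Mitochondrially encoded genes are not analysed here.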

Additional observations from a re-analysis of the deposited data

Results flagged for a closer look

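The members' median difference between constructs was large in NC and near that of all genes in HFD. For shNrf3 minus shCtrl the median of the 84 members was -0.17 in HFD and 1.01 in NC, and for HFD minus NC it was -0.27 with shNrf3 and 0.87 with shCtrl. The median of the construct by diet difference (that in HFD minus that in NC) was -1.16, with 66 members 1.5-fold or more below 0 (background 37.2% of all genes) and 1 above it (background 13.8%). All genes had a median of -0.30 for it. For shNrf3 minus shCtrl in HFD all genes had a median of -0.14, and after loess the members' median there was -0.02. With 1 array a group this difference was not tested, and it holds the low shCtrl-NC array in full.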

How the results depend on the processing

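No paired analysis was possible because each group has 1 array, and no array could be left out of the additive fit, which has 1 residual degree of freedom. With 1 array a group, no value here carries a replicate error, and a fault of the shCtrl-NC array and a difference of its tumor cannot be told apart. Members under the negative control 95th percentile are close to background: 56 of 84 were above it on all 4 arrays. The additive fit called 0 members in each of its 12 alternatives, while after loess it called 9 of 10031 genes for construct and 1 for diet, against 0 of 10021 as deposited. No median over the 84 members changed sign; for shNrf3 minus shCtrl in HFD that of complex V did under loess (0.10) and quantile normalization (0.10), and that of complex II under centring (-0.045) and as a mean (-0.15). The 4 member medians moved by 0.1 or more in 8 cases and by less in 24, and complex medians in 50 and by less in 54. Centring gave 0.98 for HFD minus NC with shCtrl and 0 members lower with shNrf3 in NC (background 10.6%). Loess gave a median of -0.020 with 7 members higher (background 12.9%) for shNrf3 minus shCtrl in HFD. In NC it gave 0.75 with 2 lower (background 18.1%). It also gave 1 higher for HFD minus NC with shNrf3 (background 9.25%). For HFD minus NC with shCtrl it gave 0.57 with 1 lower (background 17.6%). Quantile normalization gave -0.031 with 8 higher (background 13.3034%) for shNrf3 minus shCtrl in HFD, and 0.72 with 2 lower (background 20.8483%) in NC. For HFD minus NC with shNrf3 it gave -0.17 with 2 higher (background 11.0778%). With shCtrl it gave 0.56 with 39 higher (background 19.8703%) and 1 lower (background 18.4032%). Without the filter 3 members were lower in HFD with shCtrl (background 19.2%). At 2-fold the counts were 1 higher and 2 lower for shNrf3 minus shCtrl in HFD, 0 lower in NC, 2 lower for HFD minus NC with shNrf3 and 36 higher with shCtrl. Counted from the median of all genes, a choice made after the data were seen, 7 were higher with shNrf3 in HFD, 2 lower in NC, and 1 higher in HFD with shNrf3. The shares of all genes at 2-fold and in this last count are not given here, so these counts have no background.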
